A study of Mus musculus with 24 samples.

Results

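GC-1 and GC-2, a pair of mouse lines used as stand-ins for male germ cells, were compared on 6 arrays, all 3 labelled GC-1 and all 3 labelled GC-2, out of 24 arrays in the series. The arrays were chosen by their sample labels alone and no expression value entered that choice. Total RNA was labelled with Cy3 and hybridized to a 1-colour array that carries probes for long noncoding RNAs (lncRNAs) and mRNAs, and the other 18 arrays hold 5 tissues of 8-week-old male ICR mice and the F9 embryonal carcinoma line, 3 arrays each. The study places GC-1 between type B spermatogonia and primary spermatocytes. It describes GC-2 as spermatocyte-like, though derived from cells arrested before meiosis. The comparison addressed which transcripts set these lines apart.

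Both are immortalized mouse lines, GC-1 used as a model of spermatogonia about to enter meiosis and GC-2 as a model of spermatocytes. Both were grown untreated in the same medium with fetal bovine serum and collected at passage 3 or 4, so that the line itself is the only factor that the labels vary. Each is 1 established line, and differences between the lines cannot be told apart from differences between the cultures that gave rise to them. The methods describe the 3 arrays per group as biological replicates without saying whether they were separate cultures, and p-values measure only the spread between these arrays.

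Spermatogonia are the mitotic cells of the seminiferous epithelium, and spermatocytes are their descendants that replicate their DNA once and pass through the meiotic divisions. Entry into meiosis is marked by genes such as Stra8, and later steps need proteins of the chromosome axis such as Hormad2 and the piRNA pathway with Piwil2. Long noncoding RNAs are transcripts without a known protein, some of which host small nucleolar RNAs (snoRNAs), lie in imprinted regions or build nuclear bodies.

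Of 60804 transcript probes, 3295 could be given a name through the study's supplementary tables, 3035 for lncRNAs and 260 for mRNAs. The following probes are shown because they read lncRNAs on which results below turn, and all are printed in lower case from 5′ to 3′ as listed, with GRCm38 positions of the transcript. Gm14201 (chr2:158402727-158403015, minus strand, intergenic) and Chd3os (chr11:69340769-69342647, plus strand, intergenic) were higher in GC-2, and AK134344 (chr13:8764023-8766737, minus strand, intergenic, a probe that also matches AK157361) was higher in GC-1. Neat1 (chr19:5842302-5845478, minus strand, intergenic) was not called with all arrays and was called when 1 was left out. In the pair of Gas5 probes (plus strand, chr1:161035166-161038539 for ENSMUST00000159663 and chr1:161037353-161038535 for ENSMUST00000160551), capitals mark the 24 bases that both share, at bases 37 to 60 of the first and 1 to 24 of the second.
Gm14201: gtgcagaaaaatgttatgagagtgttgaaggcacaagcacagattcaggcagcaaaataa
Chd3os: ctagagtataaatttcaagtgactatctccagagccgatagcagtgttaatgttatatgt
AK134344: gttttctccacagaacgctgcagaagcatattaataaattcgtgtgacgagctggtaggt
Neat1: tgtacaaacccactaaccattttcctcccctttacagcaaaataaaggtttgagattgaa
Gas5 ENSMUST00000159663: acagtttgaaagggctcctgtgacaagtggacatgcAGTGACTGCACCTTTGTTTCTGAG
Gas5 ENSMUST00000160551: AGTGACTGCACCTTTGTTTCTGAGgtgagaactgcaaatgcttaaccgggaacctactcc

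Levels are log2 intensities of a probe, after the scanner software's background subtraction, minus the 75th percentile of the array, so that 0 is that percentile and 1 unit is a doubling. The percentile itself ran from 98.2 to 146 intensity units over the 6 arrays, and 26120 to 28655 probes per array were well above background. Levels of 1 probe are compared between lines here, never levels of different probes. Replicate 1 of both lines lay on one slide and replicates 2 and 3 on another. Correlations over all probes were 0.979 to 0.987 between GC-1 arrays, 0.972 to 0.988 between GC-2 arrays, and 0.944 to 0.954 between the lines. GC-2 replicate 1 stood apart: 328 probes lay more than 8-fold above and 122 more than 8-fold below the mean of the other 2 GC-2 arrays, against 89 to 233 above and 9 to 56 below for the other 5 arrays of the lines. Results that rest on it are given with and without it.

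GC-1 and GC-2 expressed largely overlapping sets of transcripts. On all 3 arrays, 24895 probes were well above background in GC-1 and 24868 in GC-2, and 22951 were shared, which is 85.6% of those detected in at least 1 line. A smaller set was detected on every array of one line and on none of the other, 707 probes for GC-1 and 689 for GC-2. Of these, 58.4% for GC-1 and 55.0% for GC-2 were detected on all 3 testis arrays, against 89.3% of the 26812 probes detected in at least 1 line. Without GC-2 replicate 1 these sets were 1206 for GC-1 and 849 for GC-2. The rule then asked for 2 GC-2 arrays only, and leaving out any array can only enlarge both sets.

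A probe was called when limma, fitted to the 6 arrays and adjusted over all 60804 probes, gave an adjusted p of 0.05 or less. By that rule 2383 probes (3.92%) were higher in GC-2 and 2868 (4.72%) were higher in GC-1, and with a fold of at least 5 as well, 701 (1.15%) were higher in GC-2 and 1182 (1.94%) in GC-1. The median difference over all probes, GC-2 minus GC-1, was -0.12, and it was 0.01 over probes detected in at least 1 line, and differences are reported without subtracting this shift. Among the 26812 probes detected in at least 1 line, 2090 (7.8%) were higher in GC-2 and 2324 (8.67%) in GC-1, and at 5-fold 652 (2.43%) and 1040 (3.88%), together 6.31%. Of the 652 and the 1040 detected in the higher line, 69.2% and 70.1% were detected on all testis arrays, and 46.5% and 43.8% on all F9 arrays, beside 89.3% and 78.2% of the 26812. With slide as a term in the fit, 4031 probes were higher in GC-2 and 4295 in GC-1. Without GC-2 replicate 1 the counts were 3586 (5.9%) and 3561 (5.86%), and 2157 and 2557 of the original calls were among them. None of the original calls turned direction without that array.

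**Figure D1:**
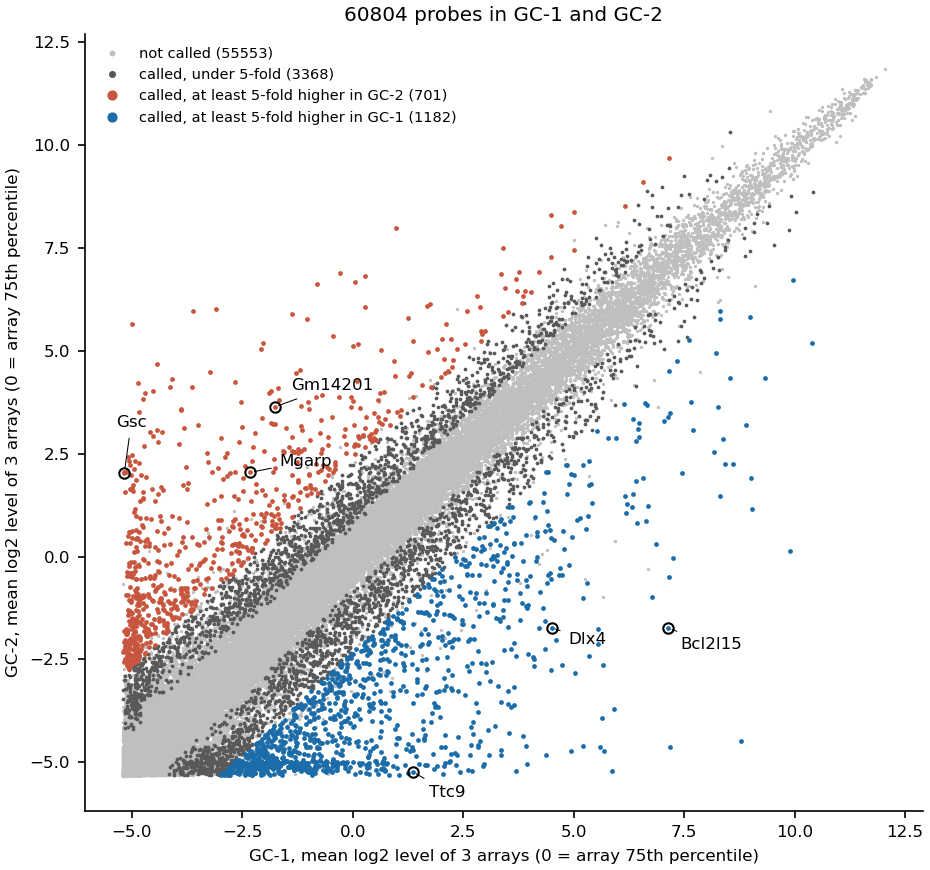
Mean log2 level of each of 60804 probes over the 3 GC-1 arrays (x axis) and the 3 GC-2 arrays (y axis), with 0 at the array's 75th percentile. Red points were called at least 5-fold higher in GC-2 (701) and blue points at least 5-fold higher in GC-1 (1182), and the circled probes are named.

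Of the probes with a name, 139 were called higher in GC-2 and 165 higher in GC-1. Under the 5-fold rule, with detection on all 3 arrays of the higher line and no overlap between the lines, 41 gene symbols were higher in GC-2 (32 lncRNAs and 9 mRNAs) and 63 in GC-1 (53 lncRNAs and 10 mRNAs). Arrays of the lines did not overlap for 11.6% of all probes in the direction of GC-2 and for 11.9% in the direction of GC-1. The 12 largest differences in each direction are described next.

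Gsc, which encodes the homeobox factor goosecoid of the gastrula organizer, was the named transcript most raised in GC-2. Its mRNA probe read 1.93, 2.13 and 2.05 on the GC-2 arrays and -5.32, -5.12 and -5.08 on the GC-1 arrays, none of which was above background. The GC-2 arrays lay together and far above all GC-1 arrays, at least 29.9-fold higher, with a fitted difference of 7.21 (SE 0.19, adjusted p = 2.02e-05). Gsc lies at chr12:104471209-104473236 on GRCm38. Its level was -1.33 ± 0.16 in F9 and 0.35 ± 0.16 in testis (SD, n = 3).

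The lncRNA 3110039M20Rik read 2.91, 2.38 and 2.26 in GC-2 and -2.81, -3.85 and -3.21 in GC-1, where 1 of 3 arrays was above background. The difference was 5.81 (SE 0.33, adjusted p = 1.16e-04), and no F9 or testis array detected it. The lncRNA AK038392 read 2.92, 1.95 and 2.01 in GC-2 and -2.74, -3.48 and -3.60 in GC-1, with 1 GC-1 array above background (difference 5.57, SE 0.36, adjusted p = 2.05e-04). Both were on the study's list of brain-specific lncRNAs, as was AK051903, which read 2.94, 3.34 and 3.45 in GC-2 and -2.17, -1.77 and -1.63 in GC-1, a difference of 5.10 (SE 0.24, adjusted p = 6.17e-05). For all 3, the gap between the lines was much wider than the spread within either line.

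Gm14201, an intergenic lncRNA 6815 bases from Ralgapb, was detected in both lines, at 3.40, 3.85 and 3.66 in GC-2 and -1.74, -2.44 and -1.12 in GC-1, a difference of 5.40 (SE 0.35, adjusted p = 2.11e-04) or 42.2-fold. A lncRNA in the exons of the chemokine gene Ccl27a (ENSMUST00000151142, chr4:41769467-41774100) read 2.48, 2.42 and 2.36 in GC-2 and -2.84, -3.23 and -2.58 in GC-1, where it was at background, so it was at least 35.9-fold higher in GC-2 (adjusted p = 4.26e-05). A second chemokine lncRNA, of Cxcl14 (uc011zab.2, chr13:56288643-56296551), read 0.16, -0.33 and -1.50 in GC-2 against -4.96, -4.87 and -4.86 at background in GC-1, at least 4.96-fold higher (adjusted p = 0.00118). The Ccl27a arrays of GC-2 agreed closely while those of Cxcl14 spread over more than 1 log2 unit.

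Mgarp, which encodes a mitochondrial protein, was the mRNA next to Gsc in the size of its rise in GC-2, from -1.92, -2.58 and -2.45 in GC-1 to 2.42, 1.84 and 1.88 in GC-2, a 20.6-fold difference (difference 4.36, SE 0.27, adjusted p = 1.79e-04). Chd3os, which lies 626 bases from the chromatin remodeler gene Chd3, read -1.27, -1.50 and -1.38 in GC-1 and 3.55, 2.56 and 2.63 in GC-2, 19.6-fold apart (difference 4.30, SE 0.30, adjusted p = 3.14e-04). Both transcripts were detected on every array of both lines.

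The other 3 of the leading 12 were detected on no GC-1 array. Gm21917 was at least 5.53-fold higher in GC-2 (levels -1.31, 0.02 and 0.08, adjusted p = 6.80e-04). C030037D09Rik, 337 bases from the RNA-binding protein gene Msi2, was at least 5.28-fold higher (-0.05, -0.82 and -0.53, adjusted p = 1.03e-04). LOC100041014, a lncRNA of the testis-specific list, was at least 12.6-fold higher (1.99, 0.26 and 0.26, adjusted p = 0.0067), and its level on GC-2 replicate 1 exceeded the others by more than 1 log2 unit. The 29 further symbols were 5.21-fold to 18.9-fold higher by the fit.

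Bcl2l15, a member of the Bcl-2 family of apoptosis regulators, showed the largest named difference of all and was higher in GC-1. It read 6.73, 7.32 and 7.36 in GC-1 and -1.79, -1.41 and -2.02 in GC-2, all 6 arrays above background. The lines were 470.3-fold apart, a difference of -8.88 (SE 0.27, adjusted p = 2.02e-05). On the slide with replicate 1 alone the difference was -8.52, and on the slide with replicates 2 and 3 it was -9.06. Bcl2l15 lies at chr3:103831036-103854618, and its levels in F9 (-0.82 ± 0.43) and testis (-0.25 ± 0.44) were also far below GC-1.

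A lncRNA of the homeobox gene Dlx4 (uc007laa.2, gene at chr11:95140447-95146294) read 3.91, 4.71 and 4.88 in GC-1 and -2.08, -1.56 and -1.55 in GC-2, detected throughout and 75.1-fold apart (difference -6.23, SE 0.32, adjusted p = 7.75e-05). A lncRNA in the exons of Ttc9 (uc007ocn.1, chr12:81631369-81667551), a gene for a tetratricopeptide repeat protein, read 1.77, 1.17 and 1.12 in GC-1 and was at background in GC-2 (-5.64, -4.92 and -5.13), at least 20.3-fold higher in GC-1 (adjusted p = 4.33e-05).

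The lncRNA AK079217 read 1.62, 2.73 and 2.82 in GC-1 and -5.63, -4.04 and -3.48 in GC-2, at background, and was at least 41.7-fold higher in GC-1 (adjusted p = 8.09e-04). AK016288 read 1.65, 2.93 and 3.02 in GC-1 and -2.04, -4.79 and -3.29 in GC-2, where only replicate 1 was above background, a difference of -5.91 (SE 0.71, adjusted p = 0.00332). AK033021 read -1.12, 0.97 and 1.18 in GC-1, with replicate 1 the lowest, and was at least 10.1-fold higher there (adjusted p = 0.00355). All 3 had a spread within 1 line of more than 2 log2 units, much wider than that of Bcl2l15, and the lines still did not overlap.

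The Ash2l probe read -0.70, 0.15 and 0.01 in GC-1 and -5.59, -4.83 and -5.0 in GC-2, at least 7.01-fold higher in GC-1 (adjusted p = 2.03e-04). Ash2l encodes a subunit of histone H3 lysine methyltransferase complexes, and its gene lies 18 bases from Star. Another 4 transcripts were likewise at background on all GC-2 arrays: the mRNAs Gm14137 (at least 18.8-fold) and A630023A22Rik (at least 12.8-fold), and the lncRNAs 4930500J02Rik (at least 21.3-fold) and 1700021O21Rik (at least 12.7-fold on the probe with the larger difference). Gm16322, whose gene overlaps Tbcel, completed the 12 at -0.34, -0.13 and -0.13 in GC-1, at least 6.9-fold higher (adjusted p = 5.05e-05). The 51 further symbols were 5.18-fold to 27.1-fold higher in GC-1 by the fit.

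**Figure D2:**
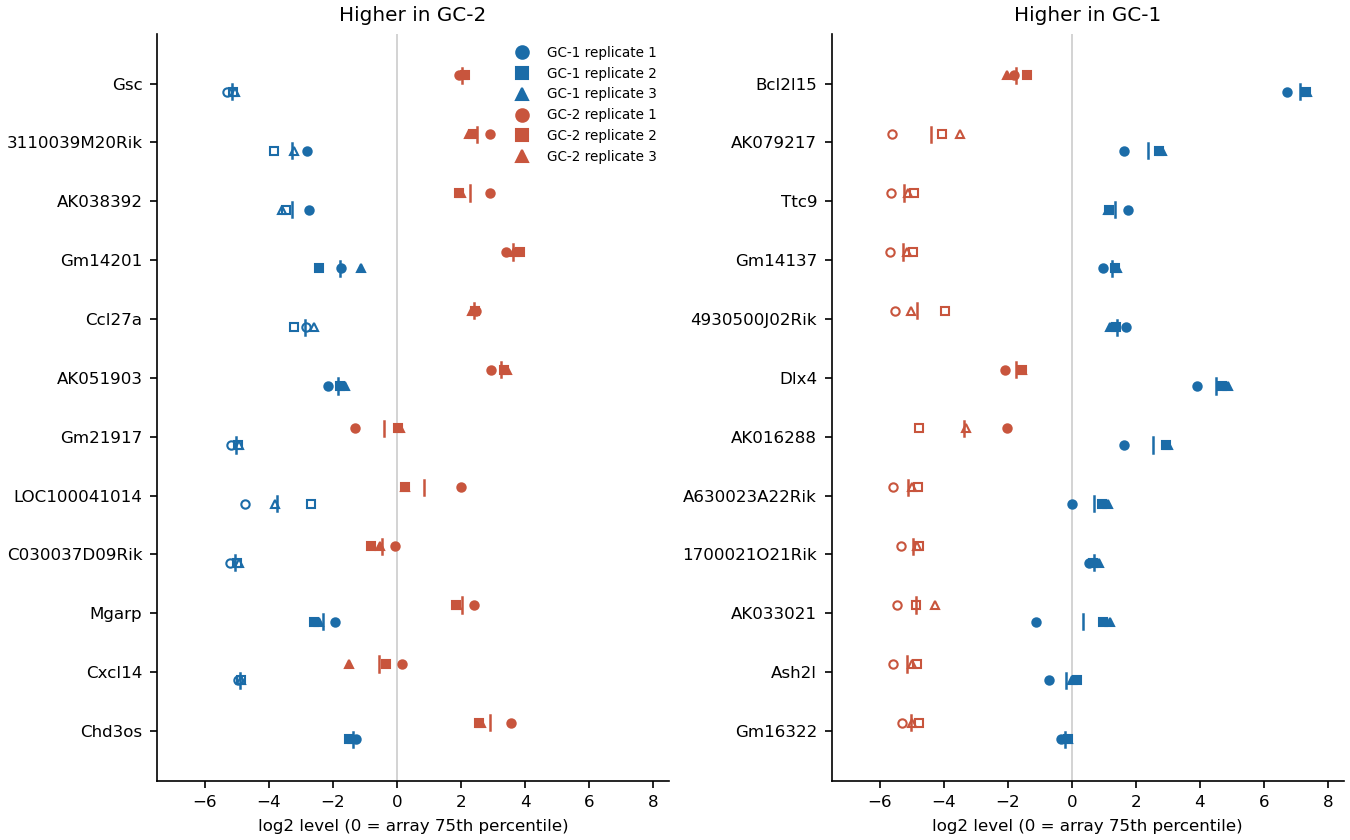
Log2 level (x axis, 0 at the array's 75th percentile) of the 12 named symbols with the largest rise in GC-2 (left) and in GC-1 (right) on each of the 6 arrays. Blue stands for GC-1 and red for GC-2, symbol shapes for replicates 1 to 3, filled symbols for a signal well above background and vertical bars for the mean of 3 arrays. The rows were chosen by a rule that asks for no overlap between the lines.

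The named mRNAs, all 260 of them, come from the study's list of testis-specific transcripts present in at least 1 of F9, GC-1 and GC-2. Signal in testis and in 1 of these lines is therefore set by the list, and the levels of its markers are a description. Of the spermatocyte markers, Hormad2, a protein of the meiotic chromosome axis, Piwil2, of the piRNA pathway, and Tex15 were listed for F9 alone, and were above background on 0 of 3 GC-2 arrays and 0 of 3 GC-1 arrays. Stra8, which licenses meiotic entry and was also listed for F9 alone, was at background on all 6 arrays of the lines. The embryonal carcinoma markers Zfp42 and Zscan10, likewise listed for F9 alone, and the myelin lncRNA Mobp were also detected on none of the 6 arrays. Actl7a, a spermatid marker, gave -0.47 (SE 0.46, adjusted p = 0.721), while Acr, also a spermatid marker, was called at -1.04 (adjusted p = 0.0243). A lncRNA of the collagen gene Col4a2, a fibroblast marker, gave -0.16 (SE 0.24, adjusted p = 0.781), while Cd109, also a fibroblast marker, was called at 2.15 (adjusted p = 0.0128).

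The spermatogonium marker Tex14, which stabilizes the bridges between germ cells, had 2 probes that differed. One read -2.36, -2.41 and -2.18 in GC-1 and -4.40, -4.99 and -4.81 in GC-2, at least 1.59-fold higher in GC-1 (adjusted p = 0.0011). The other was above background on 2 GC-1 arrays and 1 GC-2 array, with a difference of -0.48 (adjusted p = 0.49). Over the 23 probes of the germ line and meiosis list, 2 were called higher in GC-2 and 2 in GC-1 (17.4%, beside 8.64% of all probes), their median difference was -0.15 beside -0.12 for all probes, and 3 were detected in each line. The called pair on the GC-2 side was Ddx43, a germ cell RNA helicase, at -1.26, -1.33 and -0.88 in GC-2 and at background in GC-1 (at least 3.14-fold, adjusted p = 0.0266), and Zcwpw1, a meiotic histone reader, at -1.36, -2.03 and -2.43 in GC-2 (at least 1.9-fold, adjusted p = 0.0341). For Ddx43 the adjusted p was 0.0708 without GC-2 replicate 1 and 0.0534 with the replicate number as a block. One of 2 probes of Atf7ip2 was called higher in GC-1 but was above background on 1 array only, with levels of -1.97, -2.92 and -2.76 in GC-1 and -3.97, -4.81 and -4.04 in GC-2, and the other gave -0.80 (adjusted p = 0.189).

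Of 14 probes for transcripts of spermatids and sperm, 9 were detected in GC-1 and 10 in GC-2. Of the 14, 2 were called higher in GC-2 and 3 in GC-1 (35.7%, beside 8.64% of all probes and 16.5% of those detected in at least 1 line), with a median difference of -0.08. Their names come from the same list, which was made in part on these arrays, and these counts are a description. Pbp2 read -1.99, -0.66 and -0.29 in GC-2, with replicate 1 the lowest, and -4.29, -4.79 and -4.78 at background in GC-1, at least 3.7-fold higher (adjusted p = 0.00357). Speer2 read -0.14, 0.48 and 0.48 in GC-2 and -2.07, -4.83 and -3.53 in GC-1, where 1 array detected it, a difference of 3.75 (SE 0.65, adjusted p = 0.0149).

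Acr, the gene of the acrosomal protease acrosin, was detected on all arrays at -1.58, -1.33 and -1.55 in GC-1 and -2.74, -2.34 and -2.48 in GC-2, a difference of -1.04 (SE 0.20, adjusted p = 0.0243) without overlap. Rnf151 read -2.65, -1.41 and -1.33 in GC-1 and was at background in GC-2, at least 2.28-fold lower (adjusted p = 0.0452), and without GC-2 replicate 1 its adjusted p was 0.0663. Iqcf5 read -0.63, -0.10 and -0.22 in GC-1 and -3.72, -1.81 and -2.13 in GC-2, lowest on replicate 1, with a difference of -2.24 (SE 0.50, adjusted p = 0.0379). For comparison, Acr stood at 2.76 ± 0.11, Rnf151 at 2.86 ± 0.19 and Iqcf5 at 7.88 ± 0.11 in testis (SD, n = 3).

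Gap43 and Star, taken as marker genes for this comparison, gave unlike results. Gap43, a growth cone protein of neurons, was read by a lncRNA in its exons (ENSMUST00000125187, chr16:42248458-42276072) at -1.76, -1.63 and -1.96 in GC-1 and 1.75, 0.62 and 0.60 in GC-2. Every GC-2 array lay above every GC-1 array, the difference was 2.77 (SE 0.34, adjusted p = 0.00375), and without GC-2 replicate 1, the highest array, it was 2.40 (SE 0.16, adjusted p = 0.00159). Star, the cholesterol carrier that limits steroid synthesis, read -1.99, -2.15 and -2.54 in GC-1 and 0.06, -2.46 and -2.25 in GC-2. The lines overlapped, the difference of 0.68 (SE 0.65, adjusted p = 0.715) rested on GC-2 replicate 1, and without that array it was -0.13 (SE 0.21, adjusted p = 0.848).

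Cell division genes were detected in both lines and mostly not called. Of 63 probes on the cell cycle and mitosis list, 60 were detected in each line, 5 were called higher in GC-2 and 3 in GC-1, and 55 were not called, with a median difference of 0.11. The share called, 12.7%, compares with 8.64% of all probes and 16.5% of those detected in at least 1 line. Both probes of the formin gene listed as Diap3 (RefSeq Diaph3), which builds actin filaments at the division plane, were called. The lncRNA probe uc007uuc.1 rose from 2.38, 1.6 and 1.73 in GC-1 to 4.68, 3.91 and 4.03 in GC-2 (difference 2.31, SE 0.31, adjusted p = 0.00533), and the mRNA probe from 1.58, 0.56 and 0.77 to 3.80, 2.72 and 2.94 (difference 2.19, SE 0.39, adjusted p = 0.016). Replicate 1 was the highest array of each line for both probes, and the difference on each slide was near the pooled one, at 2.30 and 2.31 for the lncRNA probe.

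Also higher in GC-2 were a lncRNA of the mitotic kinase gene Pbk (difference 1.24, SE 0.29, adjusted p = 0.0432), a lncRNA of the cohesin gene Smc1a (difference 0.94, SE 0.20, adjusted p = 0.0303) and the mRNA of the centrosomal protein Cdk5rap2 (difference 1.13, SE 0.26, adjusted p = 0.0445). The Pbk mRNA probe gave 1.21 (SE 0.32, adjusted p = 0.0693) and was not called. In the opposite direction, Usp44, a deubiquitinase of the spindle checkpoint, read -0.75, -1.66 and -1.75 in GC-1 and -3.97, -4.01 and -5.04 at background in GC-2, at least 3.04-fold lower (adjusted p = 0.00541), and its other probe gave -1.93 (adjusted p = 0.219). Ncapg2, a condensin subunit, read 4.04, 3.41 and 3.23 in GC-1 and 2.19, 1.49 and 1.63 in GC-2 (difference -1.79, SE 0.30, adjusted p = 0.0138). A lncRNA of Pttg1, the gene of securin, was lower in GC-2 by the fit, -1.27 (SE 0.19, adjusted p = 0.00769).

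Of 11 DNA repair probes, all detected in both lines, 1 was called (9.09%, beside 16.5% of all probes detected in at least 1 line). Parpbp, which binds PARP1 and restrains homologous recombination, read 1.84, 1.78 and 1.73 in GC-1 and 3.29, 3.26 and 3.27 in GC-2. The arrays of each line agreed closely and the difference was 1.49 (SE 0.18, adjusted p = 0.00304). Fanci, Atr, Rad18, Neil3, Xrcc2 and the other probes of the list ranged from -0.91 to 0.87 and were not called.

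Among 12 probes of pluripotency and embryonal carcinoma genes, Gsc was called higher in GC-2 and Zic5 higher in GC-1. The share called was 16.7%, beside 8.64% of all probes, and the median difference was 0.25, beside -0.12 for all probes. Zic5, a zinc finger factor of neural development, read -3.34, -2.61 and -1.84 in GC-1, where 2 arrays were above background, and -5.48, -4.84 and -5.04 in GC-2, with none (difference -2.53, SE 0.40, adjusted p = 0.0104). A lncRNA of the proto-oncogene Mycn was detected on all arrays at 5.12, 6.0 and 5.89 in GC-1 and 3.49, 4.60 and 4.49 in GC-2, but its difference of -1.48 (SE 0.38, adjusted p = 0.0652) did not pass. Igf2bp3 was detected throughout (difference 0.51, SE 0.19, adjusted p = 0.2).

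In the short list of apoptosis and senescence genes, all 5 probes, of 4 genes, were detected in both lines. Of the 5, 2 were called (40.0%, beside 16.5% of all probes detected in at least 1 line). Their median difference was -1.53, beside 0.01 for all probes detected in at least 1 line. Besides Bcl2l15, 1 of 2 probes of Bcl2l11, which encodes the pro-apoptotic protein Bim, was called, at 0.55, 0.71 and 0.87 in GC-1 and -1.44, -0.32 and -0.68 in GC-2, a difference of -1.53 (adjusted p = 0.0283). The other Bcl2l11 probe read 0.21, 0.38 and 0.31 in GC-1 and -2.44, -0.78 and -0.87 in GC-2, a difference of -1.66 with an adjusted p of 0.0737, and of 0.0312 with slide as a block. On both probes every GC-2 array lay below every GC-1 array, and replicate 1 was the lowest of GC-2. Cdkn2a, the locus of the Ink4a and Arf inhibitors, read 4.97, 5.24 and 5.96 in GC-1 and 4.93, 5.57 and 5.59 in GC-2, and the Trp73 lncRNA read 3.74, 3.96 and 3.81 and 4.20, 3.98 and 3.84, so both overlapped between the lines.

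Of 7 nuclear pore probes, 1 was called (14.3%, beside 8.64% of all probes and 16.5% of those detected in at least 1 line). A lncRNA of Nup214 (ENSMUST00000153096) read 7.64, 8.01 and 8.23 in GC-1 and 6.44, 6.95 and 6.94 in GC-2 (difference -1.18, SE 0.25, adjusted p = 0.0338), while the Nup214 mRNA probe had the opposite sign, 0.99 (SE 0.46, adjusted p = 0.316), and was not called. The lncRNA of Ndc1 gave 0.72 (SE 0.18, adjusted p = 0.0632) and was not called, while its adjusted p was 0.0261 with slide as a block and 0.0422 without GC-2 replicate 1. Nup98, Nup205, Nup210l and Nup62cl were not called at 0.56, 0.43, -1.08 and -0.15. Of 13 mesenchymal and cytoskeletal probes, Cd109, a surface protein that binds TGF-beta, was higher in GC-2, at 0.30, -0.90 and -0.91 in GC-1 and 1.82, 1.52 and 1.58 in GC-2 (difference 2.15, SE 0.36, adjusted p = 0.0128). The probe of Capzb, an actin capping protein, read -2.74, -2.33 and -2.51 in GC-1 and -4.25, -4.72 and -5.17 at background in GC-2, at least 1.38-fold lower (adjusted p = 0.00442). The other 11 probes, among them lncRNAs of Actg1, Tpm1, Fscn1, Capg and Col4a2, were not called. The share called of these 13 was 15.4%, beside 8.64% of all probes and 16.5% of those detected in at least 1 line.

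**Figure D3:**
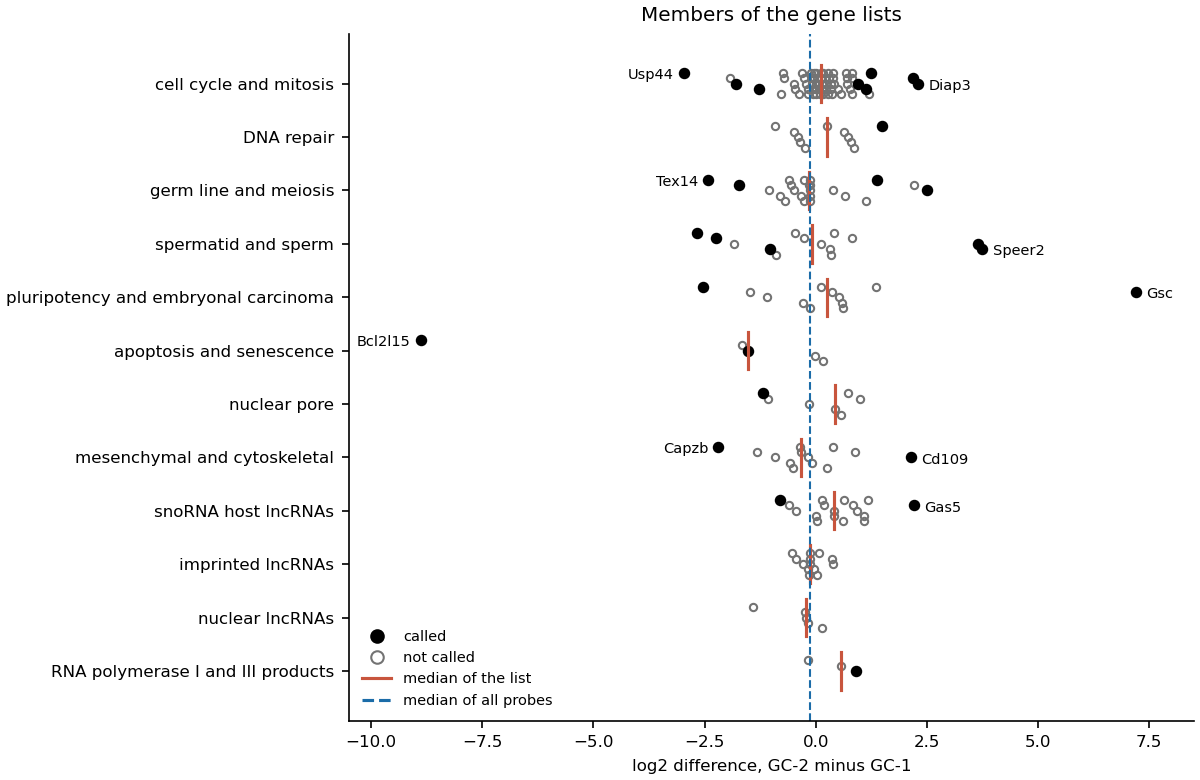
Log2 difference, GC-2 minus GC-1 (x axis), of every probe on the 12 gene lists (rows). Filled points were called, open points were not, the short red line is the median of the list and the dashed blue line the median of all probes at -0.12, and called members lie on both sides of 0 in 6 of the lists.

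The lncRNAs that host snoRNAs, whose introns release the small RNAs that guide modification of ribosomal RNA, were detected in both lines on 16 of 17 probes. Of these 17, for 7 host genes, 1 of Gas5 was called higher in GC-2 and Dancr higher in GC-1. The share called was 11.8%, beside 8.64% of all probes and 16.5% of those detected in at least 1 line. Dancr read 4.86, 4.93 and 4.86 in GC-1 and 4.14, 4.13 and 3.96 in GC-2, a small but tight difference of -0.81 (SE 0.18, adjusted p = 0.0394), which with the replicate number as a block had an adjusted p of 0.0607. The Gas5 probe ENSMUST00000160551, printed above, read 5.24, 4.64 and 4.48 in GC-1 and 8.16, 6.43 and 6.41 in GC-2 (difference 2.21, SE 0.51, adjusted p = 0.0425). The probe ENSMUST00000159663, with which it shares 24 bases, read 9.34, 8.31 and 8.21 and 10.68, 8.99 and 8.99 and was not called (difference 0.94, SE 0.54, adjusted p = 0.454).

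Over the 9 Gas5 probes the difference ran from -0.61 to 2.21, and replicate 1 was the highest GC-2 array on each of them. With slide as a term, 4 further Gas5 probes were called, at differences of 0.94 to 1.18. The probes read overlapping transcripts of 1 gene, and their values are not independent of each other. Snhg1 read 7.12, 5.34 and 5.35 in GC-1 and 8.36, 4.72 and 4.79 in GC-2, and 2410006H16Rik read 8.91, 7.88 and 7.97 and 9.73, 6.84 and 6.86. On both, replicate 1 was the highest array of each line, and the remaining arrays of GC-2 lay below all GC-1 arrays. Snhg6, Taf1d and the 3 probes of 1110038B12Rik were not called, at 0.01, 0.41 and 0.14 to 0.41.

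Neat1, the scaffold RNA of paraspeckles, read 7.11, 6.42 and 6.0 in GC-1 and 7.34, 3.85 and 4.11 in GC-2. On replicate 1 the lines were 0.22 apart, while on the other slide GC-2 was far lower, and the difference of -1.41 (SE 0.90, adjusted p = 0.528) became -2.53 (SE 0.36, adjusted p = 0.0141) without GC-2 replicate 1. Malat1, its neighbour on chromosome 19, gave -0.24, -0.21 and -0.17 on its 3 probes and Tug1 0.14, none of them called and none at an unadjusted p of 0.05. None of 13 probes of the imprinted lncRNAs H19, Meg3, Kcnq1ot1, Peg13 and Nespos was called, nor passed an unadjusted p of 0.05, and limma called 0 of them under each of the 18 alternatives tried. H19 read 8.33, 9.21 and 9.29 in GC-1 and 8.10, 9.27 and 9.35 in GC-2, with replicate 1 the lowest of each line, and Kcnq1ot1 read 4.94, 5.01 and 4.87 and 4.94, 5.0 and 4.94. Of the 7 Meg3 probes, 3 were detected on all arrays of both lines and the other 4 on none.

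Products of RNA polymerases I and III were detected on all arrays. The RNase P-like RNA Rprl3 was higher in GC-2, at 3.51, 3.29 and 3.68 in GC-1 and 4.21, 4.51 and 4.45 in GC-2 (difference 0.90, SE 0.21, adjusted p = 0.0437), with an adjusted p of 0.0665 when the replicate number was a block. Rpph1, the RNA of RNase P itself, gave 0.56 (SE 0.24, adjusted p = 0.272) and the 45S precursor Rn45s -0.17 (SE 0.19, adjusted p = 0.781). Of 51 lncRNA probes named for ribosomal protein genes and pseudogenes, all detected in both lines, only Rpl29-ps1 was called, at 5.55, 5.93 and 5.96 in GC-1 and 7.48, 7.48 and 7.53 in GC-2 (difference 1.68, SE 0.20, adjusted p = 0.00322), and their median was -0.06. The share called of these 51 was 1.96%, beside 16.5% of all probes detected in at least 1 line. None of 6 probes on the mitochondrial genome was called, 1 of them passed an unadjusted p of 0.05, and the largest difference among them was 1.39 (SE 0.40, adjusted p = 0.0937) for DQ539915. Its GC-1 arrays spread from 8.76 to 10.34.

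Classes of lncRNA by their position to a neighbouring gene were called at shares of 3.13% to 10.3%, beside 8.64% of all probes. Most members were detected. Of those detected in at least 1 line, 3.13% to 9.52% were called, below the 16.5% of all probes so detected. A class is known here for only 1829 of the 60804 probes, all of them named, and the shares do not describe the classes over the whole array. In GC-1, 933 of 974 intergenic probes were detected, beside 24895 of all 60804. Of 974 intergenic probes, 37 (3.80%) were higher in GC-2 and 43 (4.41%) in GC-1, beside 3.92% and 4.72% of all probes. The counts for GC-2 and GC-1 were 22 and 15 of 433 exonic sense, 5 and 4 of 87 exonic antisense, 8 and 5 of 192 intronic antisense, 0 and 3 of 96 intronic sense, and 0 and 3 of 47 bidirectional probes. Medians ran from -0.13 to -0.03. The largest named intergenic difference towards GC-1 was that of AK134344, whose locus overlaps Adarb2. It read 3.13, 3.12 and 3.46 in GC-1 and -1.56, -1.36 and -1.53 in GC-2, all above background (difference -4.72, SE 0.20, adjusted p = 4.16e-05).

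LncRNAs that the study called specific to 1 tissue were mostly at background in both lines. The study made these lists from the 5 tissues, and they are used as far as they are held here. The testis list is held only in small part. Of 595 brain-specific probes, 35 were detected in GC-1, 39 in GC-2 and 20 in both, and 18 were called higher in GC-2 and 13 in GC-1, together 5.21% beside 8.64% of all probes, and 13 and 6 of them by at least 5-fold. Besides 3110039M20Rik, AK038392, AK051903 and Gap43, and outside the naming rule and chosen after their values were seen, lncRNAs of the glycine receptor gene Glrb (at least 3.73-fold, adjusted p = 1.44e-04) and of the microtubule protein gene Map2 (at least 1.59-fold, adjusted p = 0.0035) were higher in GC-2 and detected on no GC-1 array. AK039736 was the brain-specific lncRNA with the largest difference towards GC-1, at -0.18, -0.51 and -0.74 there and at background in GC-2, at least 5.7-fold lower (adjusted p = 1.23e-04).

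Of the 165 testis-specific lncRNA probes held here, 7 were detected in GC-1 and 12 in GC-2, which included those 7. Of the 165, 5 were called in each direction, together 6.06%. These probes are a small part of the study's testis list, and the counts do not describe the whole of it. The heart, kidney and liver lists had 5, 6 and 2 probes called of 104, 102 and 48, which is 4.81%, 5.88% and 4.17%. All these shares lie below the 8.64% of all probes, but most members were detected in neither line. Members detected in at least 1 line were 54 brain, 12 testis, 16 heart, 12 kidney and 3 liver probes. Of these, 40.7%, 25.0%, 25.0%, 33.3% and 66.7% were called, beside 16.5% of all probes detected in at least 1 line. A probe can pass this filter through the line in which it is high alone, so these shares are a description. Both lines detected 20 of the 54 brain probes, beside 22951 of the 26812 probes detected in at least 1 line. Testis-specific transcripts that the study listed as present in at least 1 of F9, GC-1 and GC-2 were chosen in part on these arrays, and their counts are a description. Of 230 such lncRNA probes, 85 were detected on all arrays of both lines, 58 on all of GC-1 but not all of GC-2, and 41 the reverse, and 23 were called higher in GC-2 and 39 in GC-1. Of 260 such mRNA probes, the same counts were 142, 25 and 33, with 20 and 27 called. The shares called were 27.0% of these lncRNA probes and 18.1% of these mRNA probes, beside 8.64% of all probes. Of those detected in at least 1 line they were 33.2% and 20.0%, beside 16.5%.

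**Figure D4:**
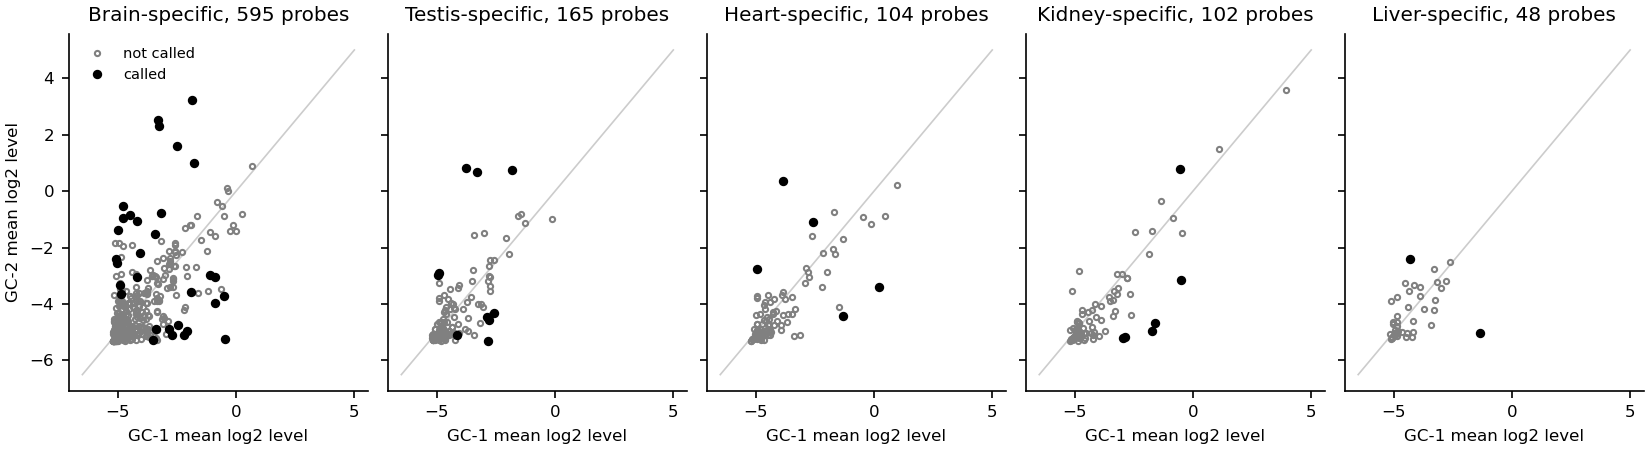
Mean log2 level in GC-1 (x axis) and GC-2 (y axis) of the lncRNAs on the study's lists of tissue-specific lncRNAs, 1 panel per tissue, with the line of equal levels. The testis panel shows only the part of its list that is held here. Most probes lie at the floor of both lines, and filled points were called, among them 18 brain-specific probes above the line and 13 below it.

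GC-2 replicate 1 differed from the other GC-2 arrays on a set of transcripts. Of 24868 probes detected on all 3 GC-2 arrays, 122 were more than 8-fold higher on it and 25 more than 8-fold lower. Of these 122, 54 were also more than 2-fold higher on GC-1 replicate 1 than on the other GC-1 arrays, and 24 on F9 replicate 1, beside 937 and 1351 of all 24868. Replicate 1 of the 5 tissues, on the same slide, was more than 2-fold higher for 2 of them in kidney, 4 in testis, 5 in liver, 13 in brain and 18 in heart. Over all 24868 probes the tissue counts were 999 in kidney, 622 in testis, 928 in liver, 473 in brain and 612 in heart. The part of the slide in these values was not tested.

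Named transcripts with the widest gap began with a lncRNA of the class I histocompatibility gene H2-Bl, which read 3.38, -4.71 and -4.24 in GC-2 and -4.20, -4.83 and -4.35 in GC-1. It was above background on that GC-2 array alone, as were the AA467197 mRNA (2.12, -4.82 and -5.11) and 3 probes of the lncRNA 5930412G12Rik, which read 1.89, 0.80 and 0.73 on replicate 1 and no higher than -3.12 on the others. A lncRNA of Setdb2, a histone methyltransferase gene, was detected on all arrays and read 5.70, -1.42 and -0.63 in GC-2 against 1.45, 0.62 and 0.92 in GC-1. Without replicate 1 it was called in the direction of GC-1, -2.02 (SE 0.35, adjusted p = 0.0269). A lncRNA of Atf3, a stress-induced transcription factor gene, read 3.68, -1.36 and -1.67 in GC-2 and 3.42, -0.33 and -0.18 in GC-1, so that replicate 1 was the highest array of both lines by more than 3 log2 units. The Brinp3 lncRNA read 1.04, -3.36 and -3.56 in GC-2.

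Transcripts low on GC-2 replicate 1 were led by the lncRNA AK148154, at -5.68, -1.46 and -1.21 in GC-2 and 0.80, 2.01 and 2.18 in GC-1. Its difference was -4.45 (SE 1.16, adjusted p = 0.0671) with all arrays, -3.0 (SE 0.46, adjusted p = 0.018) without replicate 1, and had an adjusted p of 0.0268 with the replicate number and 0.0122 with slide as a block. The mRNA 1700009N14Rik read -1.65, 2.26 and 2.10 in GC-2 and 0.01, -3.44 and -3.45 in GC-1, so that replicate 1 of the lines lay between their other arrays. 1600025M17Rik read -2.71, 0.34 and 0.27 in GC-2 and was at background in GC-1, at least 4.5-fold higher in GC-2 (adjusted p = 0.0362). AK034378 and AK029265 were above background on GC-2 replicate 2 alone among the GC-2 arrays. The Mpp2 lncRNA, at -5.36, -2.83 and -2.19 in GC-2 and -1.02, -0.61 and -0.30 in GC-1, was not called with all arrays (difference -2.82, SE 0.77, adjusted p = 0.0786) and had an adjusted p of 0.044 with the replicate number and 0.0252 with slide as a block.

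**Figure D5:**
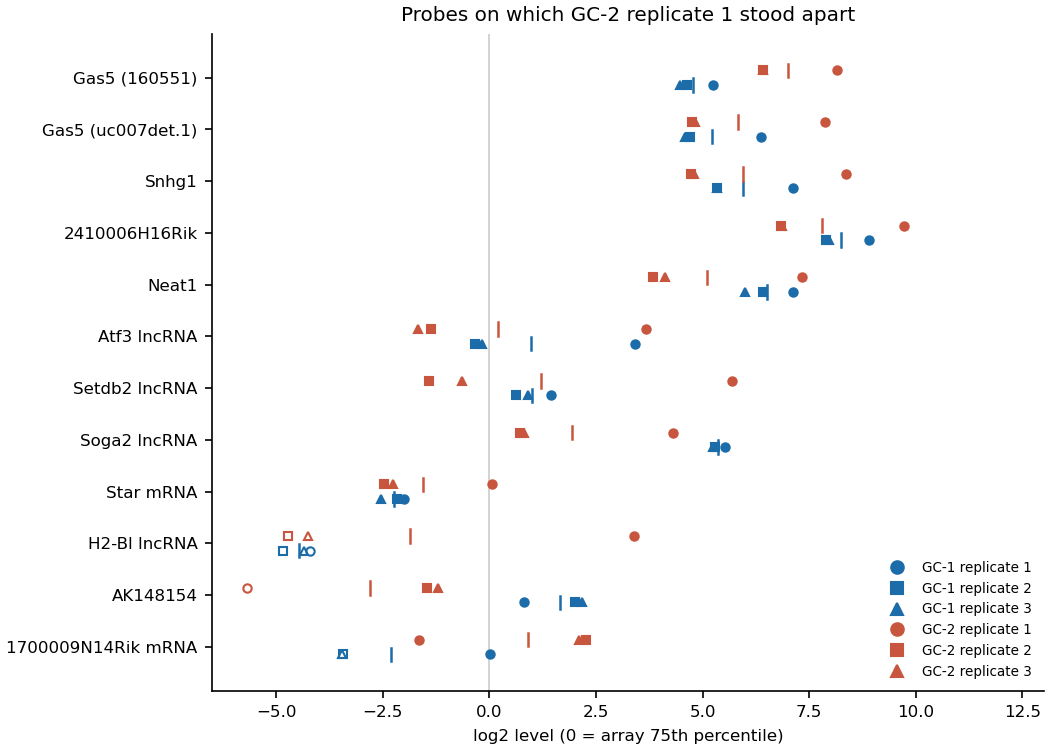
Log2 level (x axis, 0 at the array's 75th percentile) on each of the 6 arrays for 12 probes on which GC-2 replicate 1 (red circles) stood apart, with blue for GC-1, red for GC-2, filled symbols for a signal well above background and bars for means. GC-1 replicate 1 (blue circles) is the highest GC-1 array in every row but that of AK148154, where it is the lowest. In the row of 1700009N14Rik, GC-2 replicate 1 is instead the lowest GC-2 array.

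Leaving out GC-2 replicate 1 added 6 named probes to the 5-fold calls higher in GC-2 and 16 to those higher in GC-1. The largest towards GC-1 was a lncRNA of Soga2, at 5.53, 5.30 and 5.23 in GC-1 and 4.30, 0.73 and 0.82 in GC-2, which went from -3.41 (SE 0.91, adjusted p = 0.0727) to -4.58 (SE 0.16, adjusted p = 2.57e-04). A lncRNA of Ido2, a tryptophan-degrading enzyme gene, read 1.32, -2.94 and -3.25 in GC-2 and 1.43, 0.76 and 0.48 in GC-1 and went from -2.51 to -3.98 (SE 0.32, adjusted p = 0.0028). A530013C23Rik, 327 bases from the transcription factor gene Cebpb, read -2.40, -4.84 and -5.04 in GC-2 and -1.25, -1.74 and -1.40 in GC-1 and went from -2.63 to -3.47 (SE 0.20, adjusted p = 0.00104). The Dmrtc1b mRNA and the lncRNA Gm11527 followed, at -3.81 (SE 0.66, adjusted p = 0.0264) and -3.27 (SE 0.53, adjusted p = 0.0211). With all 6 arrays and slide as a block, the adjusted p was 0.0324 for Soga2 and 0.0252 for A530013C23Rik. In these 5, replicate 1 was the GC-2 array closest to the GC-1 level.

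Towards GC-2, AK135004 went from 3.10 to 4.11 (SE 0.32, adjusted p = 0.00263) and 9930013L23Rik, whose gene overlaps that of the hyaluronan-binding protein Cemip, from 2.5 to 3.63 (SE 0.50, adjusted p = 0.0136). Both were at background in GC-1 and on GC-2 replicate 1 and were detected on the other 2 GC-2 arrays, with levels of -1.36 and -0.33 for AK135004 and -0.83 and -0.71 for 9930013L23Rik. With all arrays and slide as a block, AK135004 had an adjusted p of 0.0408. AK085891 and Gm14501 were called with and without that array and passed 5-fold only without it, at 2.52 (SE 0.18, adjusted p = 0.00202) and 2.36 (SE 0.27, adjusted p = 0.00748). AK085891 was above background on 1 GC-2 array.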

How the data were processed

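Cy3-labelled RNA of GC-1 and GC-2 cells was read on 1-colour Agilent arrays, and the authors deposited Feature Extraction 11.5.1.1 output with background-subtracted intensity values per spot. The deposited series table holds the same intensity values, within a relative difference of 0.000228. For this report, control spots were left out, log2 taken and the array's 75th percentile subtracted. Probe names were unique among the remaining spots of an array, so no spots were averaged. limma 3.58.1 in R 4.3.3 (lmFit, eBayes) was fitted to the 6 arrays, GC-2 minus GC-1, with Benjamini-Hochberg adjustment over 60804 probes and no covariate.

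A probe was detected in a line when it was well above background on all 3 arrays. Where a probe was so on none of 3, the fold is a lower bound against the lowest signal well above background. Names, positions (GRCm38) and probe sequences came from the study's supplementary tables, as far as they are held here, and other gene positions and neighbours within 10 kb from RefSeq (GRCm38.p6). Of 97 RefSeq transcripts compared, 94 lay inside their gene. The number of arrays limits precision.

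The genes named were Gap43 and Star, all members of lists of up to 7 symbols, the 4 largest called members of longer lists, the 12 largest differences in each direction under the 5-fold rule, the 8 probes in each direction furthest off on GC-2 replicate 1, and the 5 in each direction called 5-fold only without it. Members of lists named beyond these were chosen after their values were seen. Members and lists were chosen with earlier results of these data known. Deviations of same-numbered arrays correlated at 0.29, 0.126 and 0.131 across probes, all above 0.1, so replicate numbers were also fitted as a block, and slide as another. Different-numbered arrays on the slide of replicates 2 and 3 correlated at 0.107 and 0.143, also above 0.1. A pairing by replicate number therefore cannot be told apart from the shared slide. Other alternatives were normexp on the median and background signals with an offset of 50 (these scanner files were used without a mean signal), quantile normalization, centring on probes detected on all 6 arrays, a filter on dim probes, 9 or 24 arrays, array weights (gene by gene), trend and robust eBayes, the series table, and leaving out each array. A fit without both replicate 1 arrays was added after seeing the data.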

Additional observations from a re-analysis of the deposited data

How the results depend on the processing

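Of 52 named probes that were called, none turned direction in 18 alternatives. All 52 kept their call with slide as a block, array weights, the 9 arrays of the cell lines, trend and robust eBayes, the series table, or slide 3 alone (the fit without both replicate 1 arrays, chosen after seeing the data), 49 with the replicate block, 45 with quantile normalization, 44 with normexp, and 38 to 50 when 1 array was left out. Among probes that were not called, Setdb2 changed from 0.22 to -2.02 without GC-2 replicate 1 and -1.80 on slide 3 alone, and Snhg1 from 0.02 to -0.59 on slide 3 alone.

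Counts moved more. Probes higher in GC-2 (2383) and in GC-1 (2868) were 2485 and 3007 with the replicate block, 4031 and 4295 with slide as a block, 7585 and 7181 with array weights, 4958 and 4910 on slide 3 alone, and 1182 to 3586 and 1699 to 3561 when 1 array was left out. The weights were 0.402 for GC-1 replicate 1 and 0.136 for GC-2 replicate 1. At 5-fold, 701 and 1182 became 203 and 326 with normexp, and 624 to 755 and 1039 to 1243 when 1 array was left out. Leaving out GC-1 replicate 2 or 3, or GC-2 replicate 2 or 3, lowered the calls, and leaving out GC-2 replicate 1 raised them.

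Over the 14 gene lists, 29 called members became 45 with slide as a block, 86 with weights, 58 on slide 3 alone and 13 to 34 with 1 array left out. Over the position classes, 145 became 307 with normexp, 258 with quantile normalization, 266 with the filter, 291 with slide, 599 with weights, 271 with trend and robust eBayes, 336 on slide 3 alone and 59 to 227 with 1 array left out. Over the tissue-specific lncRNAs, 54 became 27 with normexp, 144 with weights and 101 on slide 3 alone. Over the testis-specific transcripts of the lines, 109 became 220 with weights, 169 on slide 3 alone and 69 to 129 with 1 array left out. The replicate block moved none of these counts by over 1.5 times. The cause of these shifts was not tested. Probes near background have only bounds, and 3 arrays per line limit the rest.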
